A study of Homo sapiens and Mus musculus with 47 samples.

Results

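The 35 genes described here are known transcriptional targets of p53, chosen by name as a fixed list of 35 symbols. Their RNA was followed through 5 count tables of the study. The HEK293T Chrom-seq table was left out as a whole, although some of its columns could be read. All 35 genes were among the 57820 genes of the human tables used. Of the 55401 genes in the mouse tables, 33 matched the same names in mouse spelling, and Tp53inp1 and Tp53i3 had no row under those spellings. The mouse tables spell the first of them Trp53inp1, which lies outside the rule and is among the listed regulators. The rule used gene names and no measured value.

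p53 is a transcription factor that accumulates after DNA damage and other stress and binds paired decamer elements near the genes it switches on. Its targets stop the cell cycle, repair DNA, trigger apoptosis, alter metabolism and, through MDM2 and PPM1D, switch p53 off again. HCT116 colon carcinoma cells have wild-type p53, whereas HEK293T embryonic kidney cells carry the large T antigen of SV40, which binds p53 and blocks it. NIH3T3 fibroblasts are known to have lost the Cdkn2a locus, which encodes an activator of p53.

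Chrom-seq tags RNA close to a chromatin mark. A reader domain joined to a SunTag peptide array recruits the peroxidase APEX2, which attaches biotin-aniline to nearby RNA, and the tagged RNA is captured on streptavidin and sequenced. Cells were transiently transfected for 48 h with plasmids in which a CMV promoter drove the reader and a chicken β-actin promoter drove APEX2, and were labelled with 500 µM biotin-aniline for 30 min and 1 mM H2O2 for 1 min. The Chrom-seq groups were HCT116 cells, NIH3T3 cells and Neuro-2a cells, a neuroblastoma line of the mouse, with the TAF3 reader, which binds H3K4me3, each against a control that carried the tag array without a reader. RNA-seq, made from poly(A) RNA of HEK293T cells, covered the CBX7 reader of H3K27me3 with its control, and cells given an antisense oligonucleotide (ASO) against SETD5-AS1, LINC00641 or LINC00662, or the control ASO. The study calls the CBX7 control untreated, while the labels give no handling for it. Every group had 3 libraries, except LINC00641 ASO with 2, and although the study calls replicates independent, nothing in the labels says that they came from separate cultures, so p-values measure only the spread between libraries, which may be technical. These are bulk samples, in which fewer expressing cells and less RNA per cell cannot be told apart.

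Levels are given as CPM, read counts scaled to a common library size with TMM factors over all human or all mouse libraries, and a fold change is a log2 value from the fit of its own groups. Called genes had an adjusted p below 0.05 and a log2 fold change of 0.75 or more in either direction. A level is comparable between groups for the same gene, not between genes. The 18 Chrom-seq libraries held 10012172 to 17558305 counts each, and the 17 of RNA-seq held 8258859 to 15330874. Each ASO lowered its own target against the control ASO, by log2 fold changes of -3.62 for SETD5-AS1, -4.81 for LINC00641 and -3.00 for LINC00662. SETD5-AS1 was at 50.9 to 51.8 CPM with the control ASO, 27.9 to 30.8 CPM without ASO and 3.84 to 4.59 CPM with its own ASO. LINC00641 was also higher with the control ASO (37.1 to 41.5 CPM) than without ASO (24.6 to 30.7 CPM), whereas LINC00662 overlapped between these groups. The epithelial markers EPCAM, CDH1, KRT8 and KRT18 were high in HCT116 control libraries, but the intestinal markers VIL1, CDX1, LGALS4 and CEACAM5 were all under 1 CPM on average. In Neuro-2a controls 7 of 8 neuroblast markers were detected and Tubb3 was at 0, and in NIH3T3 controls all 8 fibroblast markers were detected. Neuro-2a TAF3 replicate 1 stood apart: without it the common coefficient of variation of its comparison fell from 0.169 to 0.068.

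The DNA that p53 reads is shown first, because the genes were chosen as known p53 targets. Not every member held an element, and a high share is no independent support for that choice. Within 5 kb on either side of the gene's 5′ end in GRCh37, the build of the human tables, 20 of the 35 genes held a p53 consensus element, taken as 2 adjoining decamers with at most 2 mismatches outside the core C and G. Among all 20242 protein-coding gene names scanned, 7.63% held one. With at most 1 mismatch the counts were 8 of the 35, or 22.9%, against 1.09% of all. The allowance of 2 mismatches was set after the stricter search had been seen. Both strands read alike, because the element is a palindrome. A match is a description of letters, not a site of binding. The 8 elements below belong to the genes on which the later results turn. Capitals mark bases that fit the consensus and lower case marks mismatches, and each is written 5′ to 3′ on the strand of its gene.

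CDKN1A, chr6:36644226-36644245, plus strand, starting at -79 from the gene's 5′ end: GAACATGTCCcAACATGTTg
MDM2, chr12:69202703-69202722, plus strand, 747 bases inside the gene: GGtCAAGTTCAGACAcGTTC
GDF15, chr19:18484757-18484776, plus strand, starting at -784 from the gene's 5′ end: AGACcTGCCCGGACATGTCC
GADD45A, chr1:68152458-68152477, plus strand, 1714 bases inside the gene: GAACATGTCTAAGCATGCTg
PLK2, chr5:57758101-57758120, minus strand, starting at -2033 from the gene's 5′ end: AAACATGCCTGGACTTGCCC
ZMAT3, chr3:178787976-178787995, minus strand, 2072 bases inside the gene: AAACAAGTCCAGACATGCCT
PERP, chr6:138425207-138425226, minus strand, 3422 bases inside the gene: AGGCAAGCTCcAGCTTGTTC
SPATA18, chr4:52918123-52918142, plus strand, 626 bases inside the gene: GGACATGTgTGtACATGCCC

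The elements of PLK2 and ZMAT3 carried no mismatch, those of GDF15, GADD45A and PERP carried 1, and those of CDKN1A, MDM2 and SPATA18 carried 2. BBC3, PPM1D, TRIAP1, TP53I3 and TP53INP1 had no match under this definition in the window scanned.

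The first comparison asked how the targets differ between a line with active p53 and a line with p53 blocked. It set HCT116 control Chrom-seq against HEK293T control RNA-seq, so the line, the table and the assay cannot be told apart. The HCT116 controls were also transfected and exposed to biotin-aniline and H2O2, while the study calls the HEK293T control untreated. Transfection and labelling therefore cannot be told apart from the line either. Of 35 genes 19 were called higher in HCT116 and 1 lower, against a background of 27.1% of 19456 genes tested called higher and 26.7% called lower, or 53.8% in either direction. The median log2 fold change of the list was 0.92, beside -0.00317 over all genes tested.

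Of the 8 cell cycle brakes 4 were called higher in HCT116. CDKN1A, whose product p21 inhibits cyclin-dependent kinases, was at 195, 198 and 186 CPM in HCT116 and at 16.9, 18.4 and 17.6 CPM in HEK293T. The lowest HCT116 library was far above the highest HEK293T library, with a log2 fold change of 3.44 (SE 0.0843, adjusted p = 3.98e-19). PLK2, a polo-like kinase, was at 114, 114 and 113 CPM against 10.2, 11.4 and 9.05 CPM, a log2 fold change of 3.47. PLK3, its relative, was at 43.8, 46.5 and 44.9 CPM against 3.18, 3.41 and 6.32 CPM, a log2 fold change of 3.35. GADD45A, a growth arrest gene induced by DNA damage, was also called, at a log2 fold change of 1.52. BTG1, BTG2 and CCNG1 were higher by less than the fold threshold (0.65, 0.33 and 0.51), and E2F7, a transcriptional repressor, overlapped between the lines.

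The feedback genes differed among themselves. MDM2, the ubiquitin ligase that marks p53 for destruction, was at 237, 237 and 249 CPM in HCT116 and at 62.8, 63.8 and 78.1 CPM in HEK293T. The libraries of the lines did not overlap, and the log2 fold change was 1.81 (SE 0.086, adjusted p = 3.71e-14). PPM1D, the phosphatase WIP1, was called at 1.25, while FBXO22, part of a ubiquitin ligase complex, was at -0.47 and not called.

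Among 11 apoptosis genes 6 were called, all higher in HCT116. FAS, a death receptor, was at 24.1, 22.4 and 21.9 CPM against 2.78, 3.07 and 1.49 CPM, a log2 fold change of 3.23 (adjusted p = 5.47e-13). ZMAT3, a zinc finger protein that binds RNA, was at 34.8, 38.9 and 39.9 CPM against 5.33, 5.66 and 4.52 CPM, a log2 fold change of 2.86 (SE 0.124, adjusted p = 7.68e-15). TNFRSF10B, the death receptor DR5, and PERP, a membrane protein of desmosomes, followed at 1.81 and 1.59. BBC3, which encodes the BH3-only protein PUMA, was at 40.3, 41.6 and 37.1 CPM against 20.2, 17.6 and 18.8 CPM, a log2 fold change of 1.06 (adjusted p = 2.64e-09). PHLDA3, an inhibitor of AKT, lay at the threshold with 0.76 and dropped below it with library-size scaling (0.60), without HCT116 control replicate 2 (0.63) and without HEK293T control replicate 3 (0.65). BAX, the pore-forming effector, was not different beyond its spread: 40.3, 34.1 and 33.8 CPM in HCT116 and 42.8, 38.1 and 31.2 CPM in HEK293T, a log2 fold change of -0.06 (adjusted p = 0.63). PMAIP1 (NOXA), TRIAP1 and AEN were at 0.09, 0.24 and 0.58, and APAF1, the scaffold of the apoptosome, was at -0.54.

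Of the 4 DNA repair genes, RRM2B, a subunit of ribonucleotide reductase, and POLH, the translesion polymerase eta, were called at 2.34 and 0.92. DDB2 and XPC, which recognise damaged DNA, were at 0.72 and -0.10. In the tables POLH overlaps GTPBP2 on the opposite strand, which had more counts.

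GDF15, a secreted factor of the TGF-β family, had the widest gap. It was at 87.9, 85.9 and 84.3 CPM in HCT116, or 4002 counts in all, and the 3 HEK293T libraries held 1 count each. The ratio was 1240, with a counting interval of 425 to 6030 at the 95% level. TP53INP1, a stress protein linked to p53 activity and autophagy, was at 41.3, 38.9 and 38.8 CPM against 7.64, 7.37 and 6.57 CPM, a log2 fold change of 2.46. The gene overlaps NDUFAF6 on the opposite strand, which had more counts. DRAM1, a lysosomal membrane protein of autophagy, was at 24.1, 30.4 and 26.6 CPM against 3.02, 2.73 and 3.28 CPM, a log2 fold change of 3.15. FDXR, a mitochondrial reductase, and CD82, a tetraspanin, were called at 1.27 and 1.30. SPATA18, which acts in mitochondrial quality control, was the only member called the other way, at 0.133, 0.379 and 0.509 CPM in HCT116 and 6.36, 3 and 4.21 CPM in HEK293T. Its HCT116 libraries held 2, 6 and 8 counts, so the log2 fold change of -3.69 (SE 0.403, adjusted p = 3.79e-08) rests on few reads.

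**Figure D1:**
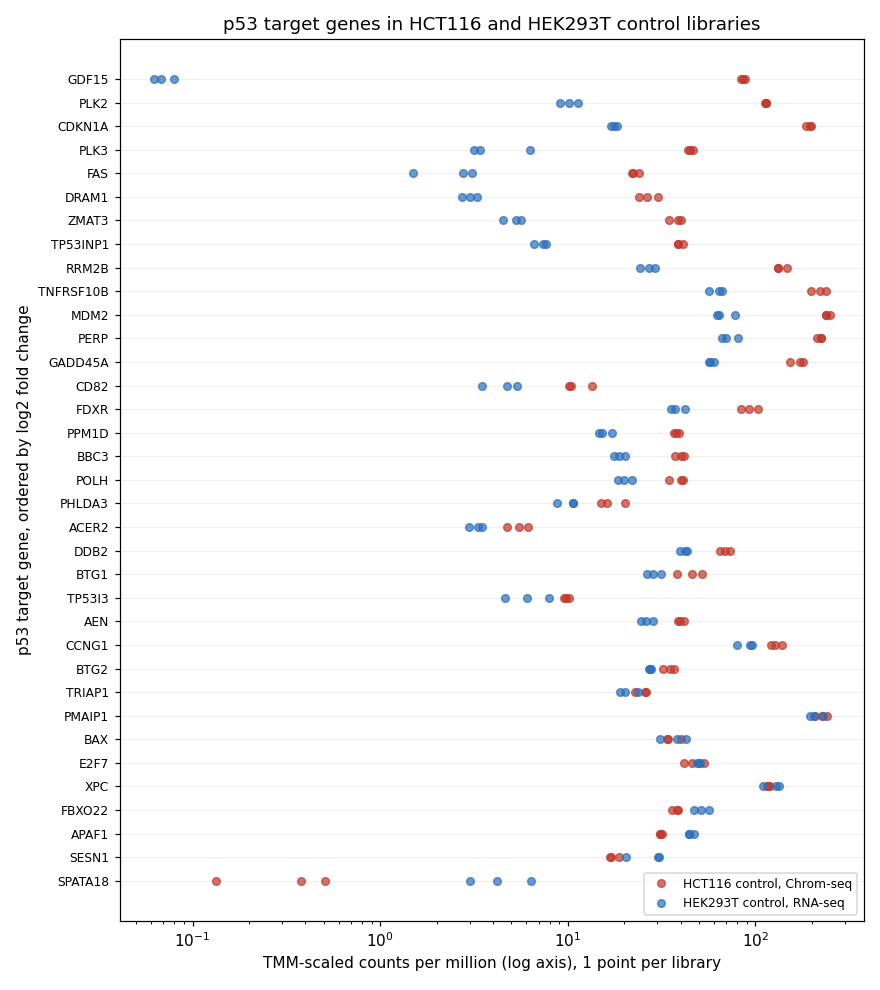
Level of each of the 35 p53 target genes in the 3 HCT116 control Chrom-seq libraries (red) and the 3 HEK293T control RNA-seq libraries (blue), in TMM-scaled CPM on a log axis, ordered by log2 fold change. GDF15 stands at the top with HCT116 levels of 84.3 to 87.9 CPM, the called rows show separated groups, and SPATA18 at the bottom is the called gene with the opposite order.

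Of 22 listed regulators of p53, 21 were tested, 4 were called higher and 1 lower, with a median log2 fold change of 0.20. MDM4, a relative of MDM2 that inhibits p53, was called higher at 1.90, as were HIPK2 (1.35), ATR (0.91) and PPP1R13L (0.82), and CDKN2A was called lower at -1.48. Of 26 further p53 targets 24 were tested, with 15 called higher and 2 lower. Among 20 cell cycle genes that p21 lowers when active, 2 were called higher and 6 lower. Over all genes tested in this comparison, 27.1% were called higher and 26.7% lower.

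The next comparison asked which RNAs lie near H3K4me3 marked chromatin in HCT116, by setting the TAF3 reader against the reader-free control. The samples hold no RNA-seq of cells with the TAF3 reader, in HCT116 or in the mouse lines. In these comparisons a change in RNA near the mark and a change in the cell's RNA level cannot be told apart. All 35 genes were tested. None was called higher and 4 were called lower, against 3.34% and 3.28% of 18731 genes tested, or 6.62% in either direction. At an unadjusted p under 0.05 there were 25 members in either direction, and DESeq2 likewise called 0 higher. The share of all genes at an unadjusted p under 0.05 was not computed. This count, and every later count by that rule, therefore does not set the listed genes apart from other genes. The median log2 fold change of the list was -0.22, beside -0.01 over all genes tested, and 28 of 35 values were below 0.

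TP53INP1 fell from 41.3, 38.9 and 38.8 CPM in the control to 19.4, 16.2 and 15.9 CPM with TAF3. The log2 fold change was -1.21 (SE 0.0938, adjusted p = 4.66e-14), with the limit from NDUFAF6 given above. GDF15 fell from 87.9, 85.9 and 84.3 CPM to 42.4, 40.6 and 42.2 CPM, with no overlap between groups. Its log2 fold change was -1.04 (SE 0.0692, adjusted p = 7.05e-16). GADD45A was at 153, 180 and 172 CPM in the control and at 87.2, 87.4 and 96.3 CPM with TAF3, a log2 fold change of -0.90 (adjusted p = 4.44e-15). BBC3 was at 40.3, 41.6 and 37.1 CPM and at 21.9, 21.7 and 21 CPM, a log2 fold change of -0.88 (adjusted p = 5.45e-11). These 4 calls were kept in each of the 6 fits that left out 1 library.

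With the adjusted p alone, 17 members were lower and 3 higher, where 17% of all genes tested were lower and 17.9% higher. CDKN1A was at 195, 198 and 186 CPM in the control and 138, 156 and 145 CPM with TAF3, a log2 fold change of -0.40 (adjusted p = 4.24e-07). The 4 DNA repair genes were all at or below 0, from -0.54 for RRM2B to -0.03 for POLH. AEN, an exonuclease of the apoptosis group, was the highest of the list, at 41.6, 38.6 and 39.5 CPM in the control and 56.8, 66.5 and 57.8 CPM with TAF3. Its log2 fold change of 0.60 (adjusted p = 2.94e-08) was under the threshold, as was PLK2 at 0.44 and TRIAP1, an inhibitor of apoptosis, at 0.37. MDM2 stayed within its spread, at 237, 237 and 249 CPM and at 249, 247 and 269 CPM (adjusted p = 0.28). BAX was at 40.3, 34.1 and 33.8 CPM and at 32.0, 32.3 and 31.2 CPM (adjusted p = 0.0984).

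**Figure D2:**
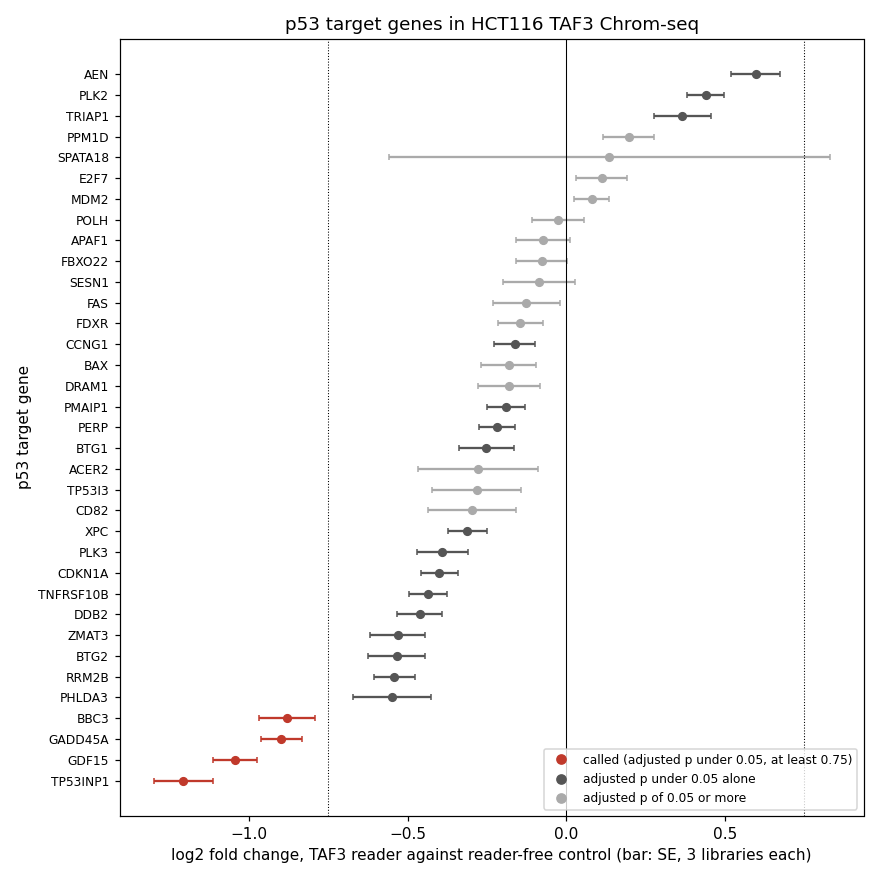
Log2 fold change of each p53 target gene in HCT116, TAF3 reader against reader-free control, with bars for the standard error (3 libraries per group) and dotted lines at the fold threshold of 0.75. The 4 called genes at the bottom run from -1.21 for TP53INP1 to -0.88 for BBC3, and AEN at the top reaches 0.60.

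In the same comparison none of 22 p53 regulators was called in either direction with edgeR. An unadjusted p under 0.05 was found for 13, with no share of all genes beside it. Of the further p53 targets tested, SESN2, a stress-induced metabolic regulator, and PTCHD4 were called lower, at -1.11 and -0.76. The cell cycle genes that p21 lowers had 0 calls with edgeR and 13 of 20 at an unadjusted p under 0.05, and 16 of the 20 values were above 0. Over all genes tested, 3.34% were called higher and 3.28% lower.

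In NIH3T3 cells, of the 33 members with a row, 30 were tested with the TAF3 reader, and Spata18, Acer2 and Perp had too few counts. Called higher were 2 members and called lower 0, against 10.7% and 0.375% of 19220 genes tested, or 11.1% in either direction. DESeq2 also called 0 lower, and 13 members had an unadjusted p under 0.05. Btg2, an antiproliferative gene, rose from 18.2, 20.2 and 20.4 CPM to 40.9, 32.1 and 31.8 CPM, a log2 fold change of 0.84 (SE 0.118, adjusted p = 6.17e-06). Without TAF3 replicate 1 the fold change was 0.72, under the threshold. Pmaip1, which encodes NOXA, rose from 1.58, 1.65 and 1.95 CPM to 4.25, 3.94 and 2.39 CPM, a log2 fold change of 1.04 (SE 0.348, adjusted p = 0.0311). Its libraries held 25 to 31 counts in the control and 41 to 66 with TAF3. The call was lost without control replicate 1 (adjusted p = 0.0871), control replicate 2 (0.0651), TAF3 replicate 1 (0.135) or TAF3 replicate 2 (0.113).

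Smaller changes passed the adjusted p alone in both directions. Mdm2 was at 333, 356 and 351 CPM in the NIH3T3 control and 401, 407 and 410 CPM with TAF3, a log2 fold change of 0.24 (adjusted p = 0.00173). Ccng1, Phlda3, Aen and Plk2 were at 0.55, 0.48, 0.39 and 0.36, and Dram1 and E2f7 at -0.47 and -0.32. Cdkn1a was at 110, 109 and 99.2 CPM and at 130, 116 and 112 CPM, which did not overlap but missed the test (adjusted p = 0.053). Bbc3 was at 24.2, 29.0 and 20.8 CPM and at 27.4, 27.7 and 24.4 CPM, and Bax at 58.9, 63.8 and 68.5 CPM and at 64.3, 62.0 and 59.6 CPM, with overlap in both. Gdf15 held 2 to 19 counts per library and was not called (adjusted p = 0.139). Trp53inp1, the gene that the human list names TP53INP1, was at 0.29 (adjusted p = 0.00381), under the fold threshold. Among 21 regulators tested, the p53 relatives Trp63 and Trp73 were called higher, at 4.17 and 2.62, from levels of at most 0.377 CPM in the controls. The share of all genes tested that was called higher was 10.7%.

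In Neuro-2a cells 29 members were tested and none was called in either direction with edgeR, against 1.01% of 17006 genes tested called higher, 0.0235% lower and 1.03% either way. At an unadjusted p under 0.05 there were 2, and DESeq2 also called 0. The library that stood apart held the highest level of several members: Cdkn1a was at 16.1, 19.7 and 18.5 CPM in the control and at 27.2, 17.5 and 15.4 CPM with TAF3, the first of these being replicate 1. Gdf15 was at 17, 13.8 and 16.7 CPM and at 33.9, 16.8 and 15.1 CPM. Bbc3 was at 21.5, 22.3 and 22.6 CPM and at 29.5, 18.0 and 11.8 CPM. Without this library still no member was called. Mdm2 was at 122, 124 and 123 CPM and at 107, 117 and 118 CPM, and Bax at 55.1, 45.5 and 50.1 CPM and at 49.0, 44.2 and 49.9 CPM.

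An interaction term over 12 libraries tested whether TAF3 acted differently in Neuro-2a than in NIH3T3, coded as Neuro-2a minus NIH3T3. With edgeR no member reached both thresholds, against 0.718% of 19509 genes tested called higher, 2.33% lower and 3.05% either way, and 3 members had an unadjusted p under 0.05. DESeq2 called 1, Btg2. Aen had an adjusted p of 0.022 at -0.57, under the fold threshold, and 5 of the 12 fits that left out 1 library gave it an adjusted p above 0.05, and Btg2 was at -0.82 with an adjusted p of 0.0553. Without Neuro-2a TAF3 replicate 1, Btg2 and Phlda3 were called lower, and without Neuro-2a control replicate 3, Btg2 was. The values of Plk2 and Pmaip1 could not be estimated, because Neuro-2a held no count of either.

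The resting levels of the mouse lines were compared in their reader-free controls, which sit in 2 tables, so line and table cannot be told apart. In Neuro-2a 4 members were called higher and 15 lower, against 25.2% and 26.5% of 18433 genes tested, or 51.7% in either direction. The median log2 fold change of the list was -0.37, beside -0.04 over all genes.

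Plk2 was at 284, 310 and 290 CPM in NIH3T3, or 13993 counts, and 0 in all 3 Neuro-2a controls, so it was at least 3540-fold higher in NIH3T3, taking 3 counts over the group as the limit. Pmaip1 was likewise at 0 in Neuro-2a and at least 20.7-fold higher in NIH3T3. Cdkn1a was at 16.1, 19.7 and 18.5 CPM in Neuro-2a and at 110, 109 and 99.2 CPM in NIH3T3, a log2 fold change of -2.56 (SE 0.0893, adjusted p = 3.25e-18). Other called cell cycle brakes were Ccng1 (-2.65), Btg1 (-2.22), Gadd45a (-1.33) and Btg2 (-1.17).

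Among apoptosis genes 7 of 10 tested were lower in Neuro-2a and none was called higher. Of the death receptors, Tnfrsf10b was at 0.0744, 0.612 and 0 CPM against 8.97, 8.59 and 12 CPM, and Fas at 0.223, 0.524 and 0.714 CPM against 7.33, 11.5 and 9.23 CPM. Their log2 fold changes were -5.42 and -4.28, from 0 to 8 counts per Neuro-2a library. Aen, Apaf1, Phlda3 and Zmat3 were called at -1.01, -0.96, -1.21 and -0.77. Zmat3 fell short of the threshold without control replicate 2 of either line, at -0.74 both times, and with library-size scaling (-0.67). Bbc3 overlapped between the lines (adjusted p = 0.28), and Bax was at -0.34, under the fold threshold.

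Mdm2 was at 122, 124 and 123 CPM in Neuro-2a and 333, 356 and 351 CPM in NIH3T3, a log2 fold change of -1.497 (adjusted p = 6.44e-18). Dram1 was lower in Neuro-2a at -3.82. The 4 genes called higher in Neuro-2a were Gdf15, Rrm2b, Sesn1, a stress-induced regulator of metabolism, and Fdxr. Gdf15 was at 17, 13.8 and 16.7 CPM against 0.242, 0.331 and 0.126 CPM, with 2 to 5 counts per NIH3T3 library, a log2 fold change of 6.04 (SE 0.308, adjusted p = 7.02e-15). Rrm2b, Sesn1 and Fdxr were at 1.03, 1.04 and 0.79. Fdxr lost its call without Neuro-2a control replicate 1 (0.71), NIH3T3 control replicate 1 (0.73) or NIH3T3 control replicate 3 (0.74). Cdkn2a, which encodes p16 and the p53 activator p19ARF, was at 0 in all NIH3T3 controls and at 29.6 to 35.8 CPM in Neuro-2a, at least 535-fold higher. Trp53inp1, the mouse form of TP53INP1, was at 13.4 CPM on average (SD 1.2, n = 3) in Neuro-2a and 91.8 CPM (SD 6.18, n = 3) in NIH3T3, a log2 fold change of -2.78 (adjusted p = 2.84e-18, edgeR).

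**Figure D3:**
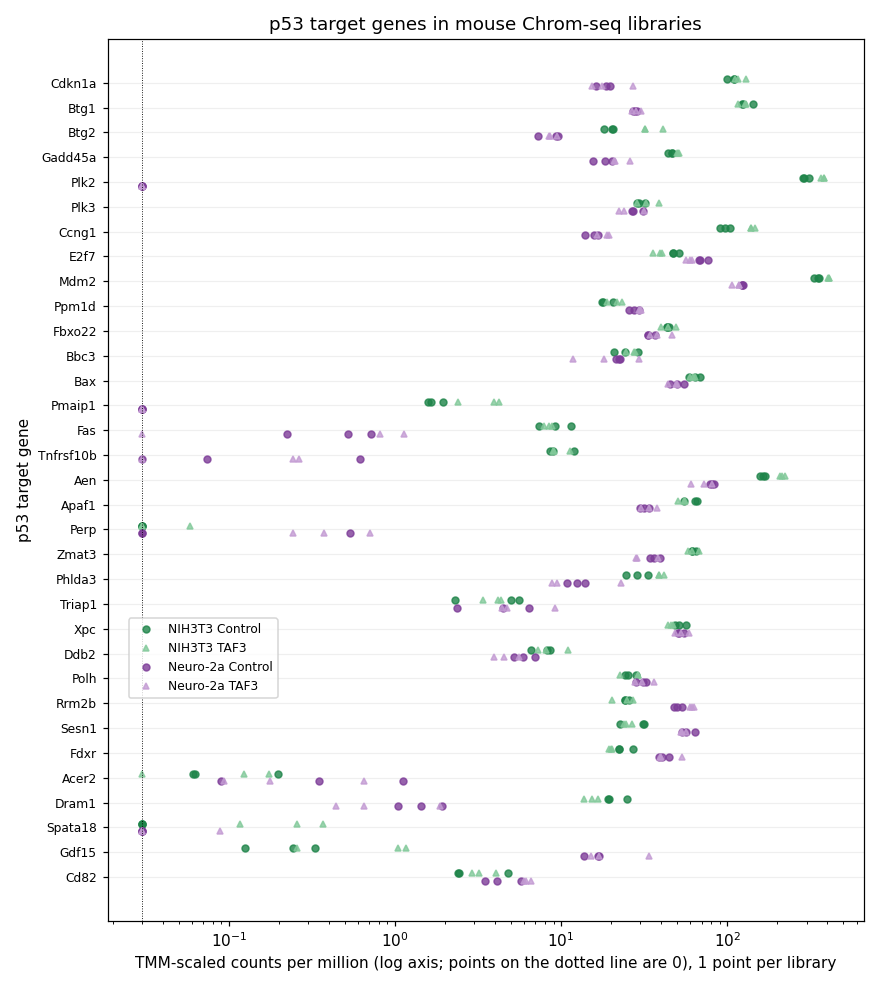
Level of each of the 33 p53 target genes in the mouse tables, in TMM-scaled CPM on a log axis, for NIH3T3 (green) and Neuro-2a (purple), with circles for reader-free controls, triangles for TAF3 and points on the dotted line for libraries at 0. Plk2 lies at 284 to 383 CPM in NIH3T3 and at 0 in every Neuro-2a library, and Gdf15 shows the opposite order.

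The CBX7 comparison set RNA-seq of HEK293T cells with the reader of H3K27me3 against its control. Because the study calls that control untreated, the reader, the transfection and any labelling cannot be told apart. Of 34 members tested 3 were called higher and 0 lower, against 4.17% and 3.48% of 18204 genes tested, or 7.66% in either direction, with 13 at an unadjusted p under 0.05. DESeq2 also called 0 lower. GDF15 had too few counts: its 3 control libraries held 1 each and the CBX7 libraries 4, 0 and 8. PPM1D rose from 14.7, 15.2 and 17.2 CPM to 33.9, 28.0 and 28.6 CPM, a log2 fold change of 0.91 (SE 0.114, adjusted p = 3.61e-05). PLK2 rose from 10.2, 11.4 and 9.05 CPM to 16.8, 19.1 and 19.2 CPM, a log2 fold change of 0.83 (adjusted p = 0.000214). AEN rose from 24.6, 26.1 and 28.6 CPM to 51.6, 40.8 and 46.5 CPM, a log2 fold change of 0.78 (adjusted p = 5.84e-05). AEN dropped below the fold threshold without CBX7 replicate 1 (0.70) or control replicate 1 (0.73).

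CDKN1A was lower with CBX7 by less than the threshold, at 16.9, 18.4 and 17.6 CPM in the control and 13.9, 10.1 and 13.4 CPM with CBX7, a log2 fold change of -0.53 (adjusted p = 0.00695). PHLDA3 was at -0.66, and without CBX7 replicate 2 it was called lower. MDM2 was at 62.8, 63.8 and 78.1 CPM and at 79.5, 80.1 and 75.4 CPM (adjusted p = 0.173). BBC3 was at 20.2, 17.6 and 18.8 CPM and at 24.2, 18.2 and 19.9 CPM, and BAX at 42.8, 38.1 and 31.2 CPM and at 39.5, 35.3 and 31.0 CPM, both with overlap. No p53 regulator was called with edgeR, and 9 of 21 had an unadjusted p under 0.05.

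The ASO comparisons asked how HEK293T cells respond to loss of each of 3 long noncoding RNAs. They share the 3 libraries of the control ASO, so their results are not independent of each other. The study lists the control oligonucleotide with the sequence below. It is shown because every ASO value is relative to it.

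ASOXNC23: ttctccgaacgtgtcacgtt

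Against the control ASO, the SETD5-AS1 ASO left 1 member called higher and 9 lower of 34 tested, against 12.9% and 11.5% of 18544 genes. The LINC00641 ASO gave 1 higher and 7 lower, against 11% and 11.5% of 18503 genes. The LINC00662 ASO gave 4 higher and 4 lower, against 11.6% and 13.3% of 18562 genes. The list's median log2 fold changes were -0.35, -0.15 and -0.10, beside 0.03, 0.00424 and 0.00132 over all genes tested. GDF15 was at 0 to 4 counts in every ASO library and was not tested.

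Beside the HEK293T control without ASO, which lies in another table, the control ASO itself had 8 of 34 members called higher and 3 lower, against 16.2% and 16.3% of 18519 genes. ASO, transfection and table cannot be told apart in that comparison. PLK2 was at 10.2, 11.4 and 9.05 CPM without ASO and at 67.1, 64.7 and 68.0 CPM with the control ASO, a log2 fold change of 2.70 (SE 0.103, adjusted p = 1.22e-11). It was at 9.34, 10.8 and 7.61 CPM with the SETD5-AS1 ASO, 9.21 and 9.60 CPM with the LINC00641 ASO and 13.1, 11.1 and 8.15 CPM with the LINC00662 ASO. The 3 control ASO libraries were thus far above all other HEK293T libraries. The log2 fold changes against the control ASO were -2.84, -2.82 and -2.57, and against the control without ASO they were -0.15, -0.13 and 0.08, none of them called.

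PERP was at 66.1, 80.7 and 70.0 CPM without ASO, at 173, 158 and 197 CPM with the control ASO, and between 68.8 and 103 CPM in the 8 libraries of the other ASOs. It was called lower against the control ASO under each ASO (-1.16, -0.81 and -0.92) and was at 0.11, 0.45 and 0.31 against the control without ASO. TRIAP1 was at 20.3, 23.6 and 19.1 CPM without ASO, at 56.5, 53 and 52.4 CPM with the control ASO, and between 25.8 and 33.8 CPM with the others. It too was called lower under each ASO (-0.79, -0.86 and -0.89) and was at 0.57, 0.48 and 0.42 against the control without ASO. SPATA18 had the reverse order, at 6.36, 3 and 4.21 CPM without ASO, 0.598, 0.922 and 1.30 CPM with the control ASO, and 2.52 to 5.14 CPM with the others. Called higher under each ASO (1.66, 1.64 and 2.35), it was at -0.61, -0.63 and 0.03 against the control without ASO. The control ASO libraries held 8, 11 and 15 counts of SPATA18, so the calls against them rest on few reads.

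Other members called between the control ASO and the control without ASO were TP53I3 (1.28), AEN (1.26), PPM1D (1.12), PLK3 (0.99), BTG1 (0.77), TP53INP1 (-1.12) and DDB2 (-1.34). The call of BTG1 was lost without control replicate 1 (0.74) or 3 (0.69), or without control ASO replicate 2 (0.69) or 3 (0.74), with library-size scaling (0.69) and with no filter on low counts (0.74). CDKN1A was at -0.54, MDM2 at 0.53, BBC3 at -0.59 and BAX at 0.52, each with an adjusted p under the test's threshold and a fold change short of it. The cause of these differences was not tested.

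**Figure D4:**
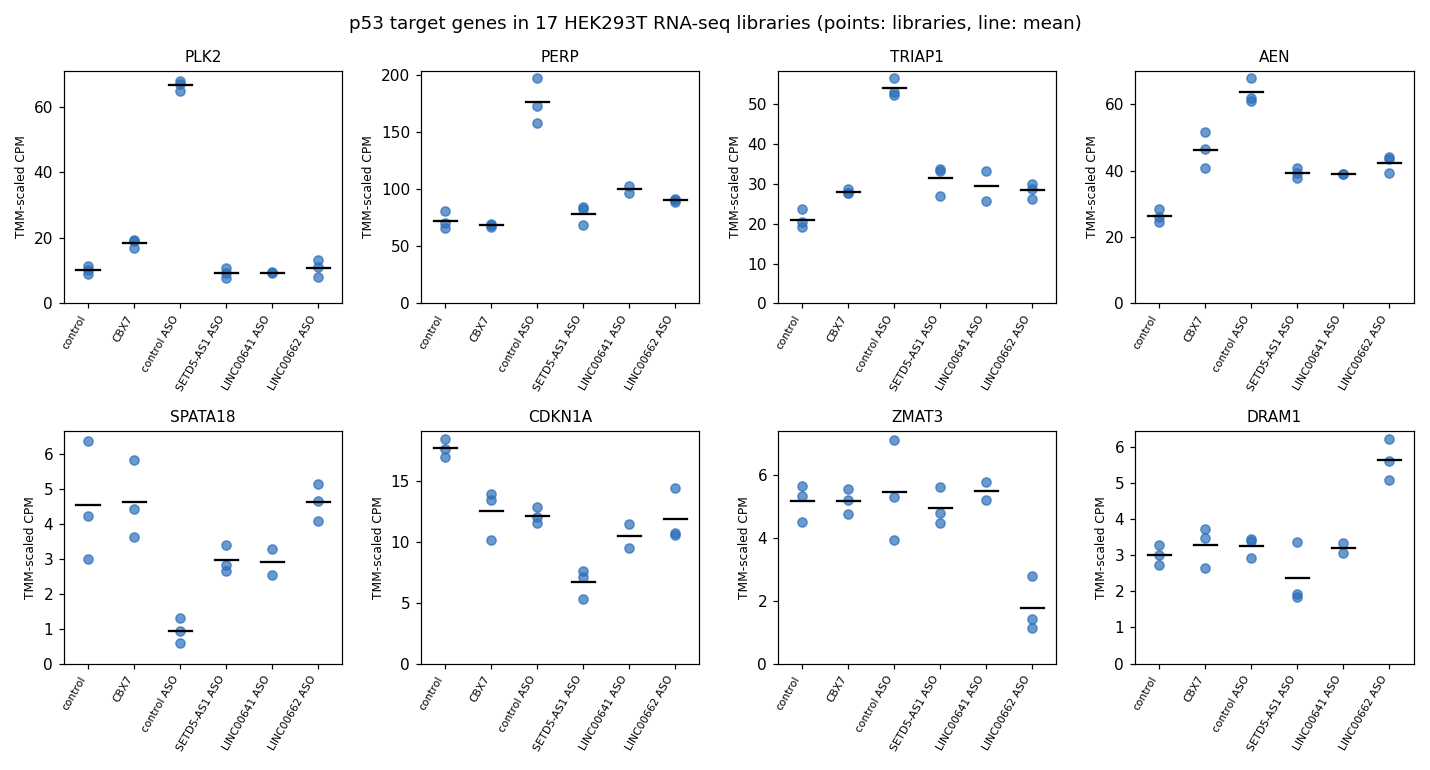
Level of 8 p53 target genes in the 17 HEK293T RNA-seq libraries, in TMM-scaled CPM on linear axes from 0, with points for libraries and a line for each group's mean. PLK2 at 64.7 to 68.0 CPM, PERP, TRIAP1 and AEN are highest and SPATA18 lowest with the control ASO, CDKN1A is lowest with the SETD5-AS1 ASO, and ZMAT3 is lowest and DRAM1 highest with the LINC00662 ASO.

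Called against both controls, in the same direction, were CDKN1A with the SETD5-AS1 ASO and ZMAT3 and DRAM1 with the LINC00662 ASO. Both comparisons use the same libraries of the targeting ASO, so they are not independent of each other. The share of all genes called against both controls was not computed. CDKN1A was at 12, 12.8 and 11.5 CPM with the control ASO, 16.9, 18.4 and 17.6 CPM without ASO, and 7.56, 7.08 and 5.30 CPM with the SETD5-AS1 ASO, below every other HEK293T library. Its log2 fold change was -0.87 (SE 0.156, adjusted p = 0.000143) against the control ASO and -1.42 (SE 0.143, adjusted p = 5.86e-06) against the control without ASO. Without SETD5-AS1 ASO replicate 3 the first of these was -0.72, and with library-size scaling it was -0.73, both under the threshold. ZMAT3 was at 7.10, 3.94 and 5.30 CPM with the control ASO and 1.42, 1.13 and 2.79 CPM with the LINC00662 ASO, and its log2 fold changes were -1.58 (adjusted p = 3.28e-05) and -1.56 (adjusted p = 0.00021) against the 2 controls. The LINC00662 ASO libraries held 22, 17 and 39 counts of ZMAT3, so both values rest on few reads. DRAM1 was at 2.91, 3.44 and 3.39 CPM with the control ASO and 5.62, 5.07 and 6.22 CPM with the LINC00662 ASO, above every other HEK293T library, with log2 fold changes of 0.84 (adjusted p = 0.000849) and 0.89 (adjusted p = 0.00143).

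The remaining calls against the control ASO were as follows. With the SETD5-AS1 ASO, PMAIP1 was at 347, 344 and 329 CPM in the control and 167, 166 and 147 CPM, a log2 fold change of -1.09 (adjusted p = 3.78e-09). GADD45A was at 74.5, 72.6 and 85.0 CPM and at 50.2, 42.8 and 36.4 CPM, a log2 fold change of -0.84 (adjusted p = 2.76e-06). PLK3, at 8.37, 8.81 and 8.96 CPM and 4.83, 4.57 and 3.31 CPM, was called at -1.04. PPM1D, at 32.8, 31.4 and 39 CPM and 18.3, 18.6 and 19.1 CPM, was called at -0.88, and TP53I3, a quinone oxidoreductase that overlaps FAM228B on the opposite strand, at -0.77 from 17, 16.1 and 12.1 CPM to 8.29, 9 and 9.23 CPM. With library-size scaling, GADD45A (-0.71), PPM1D (-0.74), TRIAP1 (-0.65) and TP53I3 (-0.63) fell short of the threshold. Without SETD5-AS1 ASO replicate 3, GADD45A (-0.73) and TRIAP1 (-0.68) lost their calls, and TP53I3 did so without control ASO replicate 1 (-0.68), control ASO replicate 2 (-0.73) or SETD5-AS1 ASO replicate 1 (-0.73). None of PMAIP1, GADD45A, PLK3, PPM1D and TP53I3 was called against the control without ASO, where PMAIP1 and GADD45A were at -0.40 and -0.44.

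With the LINC00641 ASO, PLK3 was at 2.60 and 4.10 CPM (-1.36), TP53I3 at 6.61 and 8 CPM (-1.04), POLH at 21.2 and 16.2 CPM (-0.86) and PPM1D at 18.0 and 21.6 CPM (-0.79). POLH had been at 34.3, 34.5 and 32.9 CPM with the control ASO. POLH lost its call without LINC00641 ASO replicate 3 (-0.67), PPM1D (-0.66) and TRIAP1 (-0.69) without LINC00641 ASO replicate 2, and PPM1D (-0.71) and PERP (-0.74) without control ASO replicate 3. With library-size scaling PPM1D (-0.72) and PERP (-0.74) also fell short. With the LINC00662 ASO, E2F7 rose from 30.8, 31.8 and 33.9 CPM to 64.8, 61.1 and 65.7 CPM (1.04, adjusted p = 3.42e-11) and TNFRSF10B from 40.0, 38.8 and 45.0 CPM to 64.7, 75.5 and 84.8 CPM (0.91, adjusted p = 4.24e-09). Against the control without ASO these were at 0.35 and 0.26 and not called.

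MDM2 was lower in every ASO group than in the control ASO by less than the threshold. It was at 93.0, 96.6 and 107 CPM with the control ASO, 62.9, 61.2 and 60.7 CPM with the SETD5-AS1 ASO (-0.68), 74.1 and 76.3 CPM with the LINC00641 ASO (-0.39) and 87.8, 70.9 and 76.9 CPM with the LINC00662 ASO (-0.29). BAX was also highest with the control ASO, at 52.4, 53.3 and 54.5 CPM beside 31.2 to 42.8 CPM in the control libraries without ASO. Its values were 38.4, 35.3 and 33.1 CPM with the SETD5-AS1 ASO, 41.2 and 34.1 CPM with the LINC00641 ASO and 38.3, 38.0 and 39.5 CPM with the LINC00662 ASO. BBC3 was at 11.6, 11.6 and 14.4 CPM with the control ASO, 10.1, 11.2 and 9.99 CPM with the SETD5-AS1 ASO, 18.9 and 15.5 CPM with the LINC00641 ASO and 14.0, 17.1 and 13.4 CPM with the LINC00662 ASO, and was not called. CDKN1A was at 11.4 and 9.46 CPM with the LINC00641 ASO and 14.4, 10.5 and 10.7 CPM with the LINC00662 ASO, neither of them called against the control ASO (adjusted p = 0.253 and 0.928).

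Against the control without ASO, the counts of called members were 0 higher and 3 lower for SETD5-AS1, 0 and 2 for LINC00641, and 1 and 3 for LINC00662, where 6.42%, 5.81% and 17.2% of all genes tested were called. That reference was added after the data had been seen. TP53INP1 was lower under each ASO in this comparison, at -0.96, -1.18 and -0.79, and CDKN1A was lower with LINC00641 at -0.77. BBC3 was lower with SETD5-AS1 at -0.86, and DDB2 with LINC00662 at -0.90.

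**Figure D5:**
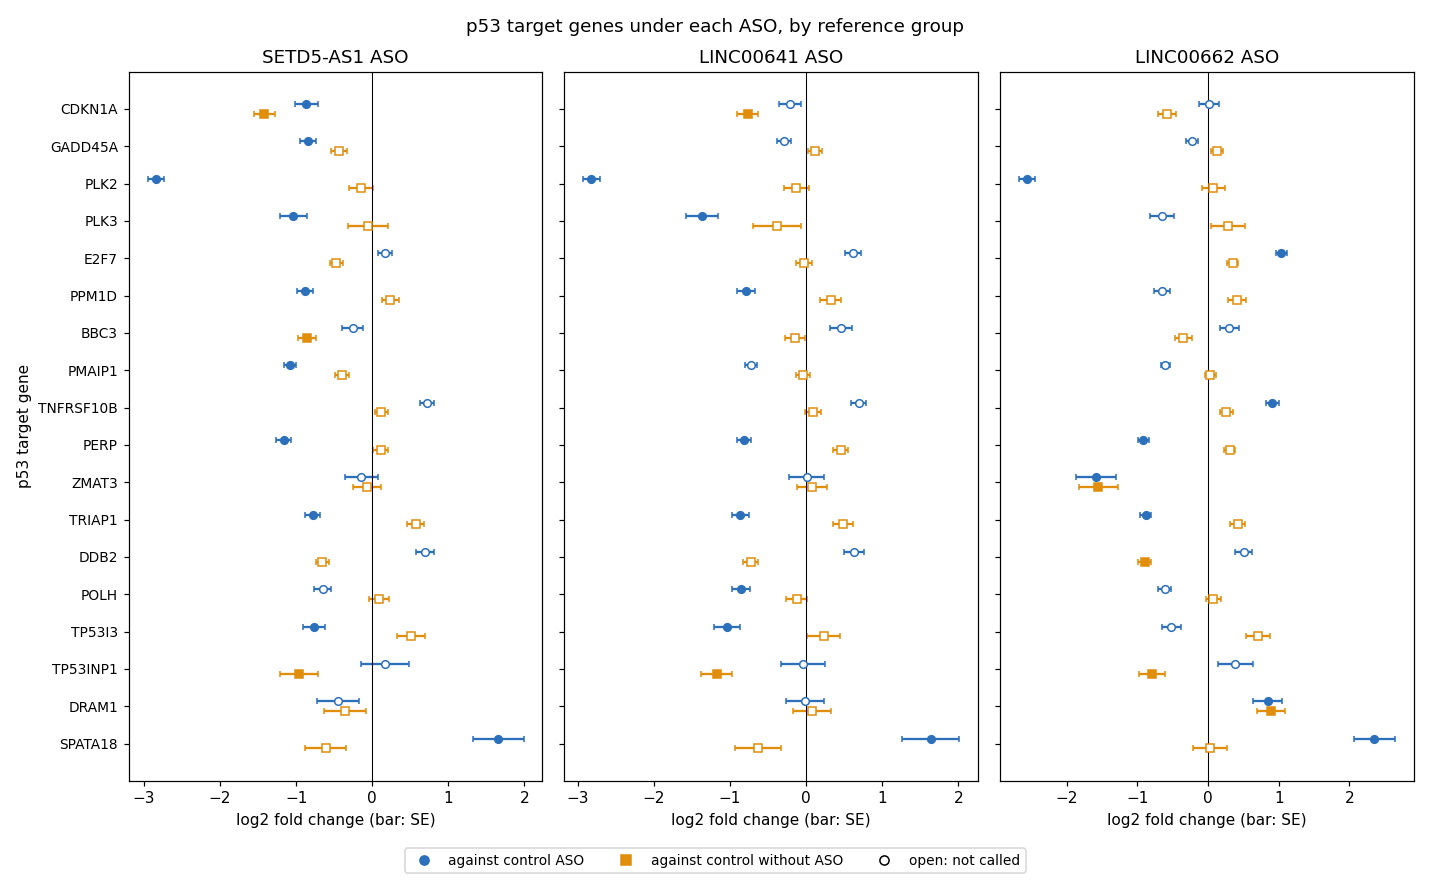
Log2 fold change of the 18 p53 target genes called in any ASO comparison by either reference, against the control ASO (blue circles) and against the control without ASO (orange squares), with bars for the standard error and open symbols where the gene was not called. PLK2 lies at -2.84, -2.82 and -2.57 by the first reference and near 0 by the second, whereas ZMAT3 and DRAM1 under the LINC00662 ASO lie in the same place by both.

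The regulators of p53 showed calls of the same kind. HIPK2, a kinase that phosphorylates p53, was called higher under each ASO against the control ASO (0.89, 1.46 and 1.61) and lower in the control ASO against the control without ASO (-1.58). EP300, an acetyltransferase, SIRT1, a deacetylase, and DAXX, a p53 partner, were called lower under each ASO and higher in the control ASO, where they stood at 1.25, 1.82 and 1.10. Among further p53 targets, SESN2, SFN, BLOC1S2 and PRDM1 were called lower under each ASO. Of the 20 cell cycle genes that p21 lowers, 3 were called higher and 3 lower with SETD5-AS1, 2 and 3 with LINC00641, and 3 and 3 with LINC00662. Over all genes tested, 12.9% were called higher and 11.5% lower with SETD5-AS1, 11% and 11.5% with LINC00641, and 11.6% and 13.3% with LINC00662.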

How the data were processed

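The deposited tables hold whole-number read counts for each gene, not normalized; the authors trimmed reads with fastp 0.23.1, aligned them with HISAT2 2.1.0 to hg19 or mm10, and counted them with featureCounts 2.0.1 over GENCODE genes. Gene lengths in the tables are whole spans, so reads in introns may be counted; strand and multimapping settings are not given in the sources used here. Of the 35 human members 19 overlap another gene in the table, 5 of them on the same strand, and their counts are uncertain to that extent.

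Of 47 samples, 35 libraries in 5 tables were used, and 0 columns belonged to other samples. The HEK293T Chrom-seq table (12 libraries) was not used here. Its TAF3 and TAF3 control columns stand in a lower block of rows without gene identifiers, which the comparisons of TAF3 in HEK293T, of HCT116 against HEK293T control Chrom-seq, and of the TAF3 effect in those lines need. The CBX7 and dPC columns do carry identifiers, so their comparison could be made, but the table was left out as a whole and it was not analysed here.

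Each comparison used only the libraries it compares and all genes of the table, by edgeR 4.0.16 in R 4.3.3 (quasi-likelihood F test), with TMM scaling and Benjamini-Hochberg adjustment over all genes tested. Genes entered with a summed count above 3 per library, 18 over 6 libraries. A standard error is the absolute log2 fold change over the root of F. The scripts were tested on simulated data. Counts of 34 within-group pairs of libraries were compared, and the smallest chi-square was 2.48 per gene, above sampling noise.

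The members and lists were chosen with earlier results of these data known. Values in every library are given for called members and for CDKN1A, MDM2, BBC3, BAX and GDF15; where over 12 members were called, for the widest changes. p53 elements were searched by sequence alone in the GRCh37 assembly. Alternatives were DESeq2 1.42.0, its size factors, library size alone, other filters, no fold threshold, a replicate block and leaving out each library. Every pair of same-numbered libraries deviated together in the CBX7 comparison (correlations 0.176, 0.331 and 0.131) and, more weakly, in Neuro-2a TAF3 (0.0623, 0.0547 and 0.078). Blocking on the number changed no count of called members in the CBX7 comparison. Some genes of the wider lists are not reported here.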

Additional observations from a re-analysis of the deposited data

Results flagged for a closer look

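The TAF3 effect on Aen, a p53-induced exonuclease of the apoptosis group, differed between the mouse lines by the interaction test, at a log2 value of -0.57 for Neuro-2a minus NIH3T3 (SE 0.133, adjusted p = 0.022, edgeR). The difference was under the fold threshold of 0.75. In NIH3T3 Aen was at 168, 165 and 157 CPM in the control and 221, 207 and 212 CPM with TAF3, a log2 fold change of 0.39 that passed the adjusted p (1.04e-05, edgeR) and not the fold threshold. In Neuro-2a it was at 81.3, 83.1 and 78.5 CPM in the control and 60.2, 72.6 and 80.8 CPM with TAF3, a log2 fold change of -0.16 that did not pass the test. All 3 NIH3T3 TAF3 libraries lay above their controls, and 2 of the 3 Neuro-2a TAF3 libraries lay below theirs. The lowest of these was Neuro-2a TAF3 replicate 1, the library that stood apart, and without it the difference was -0.46 (adjusted p = 0.00169, edgeR). Over the 12 fits that left out 1 library the difference ran from -0.67 to -0.46. The adjusted p was above 0.05 in 5 of them, without Neuro-2a control replicate 1 (0.0582) or 2 (0.0725), NIH3T3 control replicate 2 (0.0521) or 3 (0.0675), or NIH3T3 TAF3 replicate 1 (0.066).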

How the results depend on the processing

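Outside the fits without a library, 138 of 160 planned counts of called members stayed within 1.5 times the value reported, and 22 did not. Most of these 22 came from dropping the fold threshold: called higher and lower were then 3 and 17 for HCT116 TAF3, 7 and 2 for NIH3T3 TAF3, 7 and 4 for CBX7, 5 and 16 for SETD5-AS1, 7 and 13 for LINC00641, 8 and 16 for LINC00662, 14 and 11 for the control ASO against none, 4 lower for HCT116 against HEK293T, and 1 lower for the mouse interaction. Of all genes tested, the shares higher and lower by that rule were 17.9% and 17% for HCT116 TAF3, 13.8% and 9.79% for NIH3T3 TAF3, 13.8% and 15.4% for CBX7, 26.9% and 25.8% for SETD5-AS1, 25.2% and 24.4% for LINC00641, 27.6% and 26.8% for LINC00662, and 29.6% each way for the control ASO, with 38.5% lower for HCT116 against HEK293T and 2.48% lower for the interaction. Library size alone moved the median of all genes by 0.14 for SETD5-AS1 and by -0.16 for HCT116 against HEK293T. It gave 3 higher and 4 lower for SETD5-AS1, where 1 and 9 had been called, 2 higher for LINC00641, and 2 lower for HCT116 against HEK293T. The DESeq2 test called 1 member lower in the mouse interaction, Btg2.

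In the fits with the replicate block, pairing same-numbered libraries left 1 member called higher in NIH3T3 TAF3, Btg2, and moved no other count by over 1.5 times. Every pair deviated together in the CBX7 comparison and, more weakly, in Neuro-2a TAF3 (correlations 0.0547 to 0.078). Each of the other comparisons examined had a pair with a negative correlation. The labels link same-numbered libraries only by the number.

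With the control without ASO as the reference, chosen after seeing the data, members called higher and lower were 0 and 3 for SETD5-AS1, 0 and 2 for LINC00641, and 1 and 3 for LINC00662. The sign of the fold change turned for PPM1D (0.23), PERP (0.11), TRIAP1 (0.57), TP53I3 (0.51) and SPATA18 (-0.61) with SETD5-AS1. With LINC00641 it turned for PPM1D (0.32), PERP (0.45), TRIAP1 (0.48), TP53I3 (0.23) and SPATA18 (-0.63). With LINC00662 it turned for PLK2 (0.076), PERP (0.31) and TRIAP1 (0.42). None of these values was called. Only TRIAP1 with each ASO, and PERP with LINC00641 and LINC00662, had an adjusted p below 0.05 (edgeR). The cause was not tested.

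Leaving out 1 library at a time gave 0 to 2 higher for NIH3T3 TAF3, 2 to 3 higher and 0 to 1 lower for CBX7, 1 to 3 higher and 6 to 9 lower for SETD5-AS1, 1 to 3 higher and 5 to 7 lower for LINC00641, 4 to 5 both ways for LINC00662, 18 to 21 higher and 1 to 2 lower for HCT116 against HEK293T, 3 to 5 higher and 14 to 15 lower for Neuro-2a against NIH3T3, 7 to 9 higher and 3 to 4 lower for the control ASO, and 0 to 2 lower for the mouse interaction. The libraries behind moves of over 1.5 times, beyond those named with their genes, were control ASO replicate 3 and SETD5-AS1 ASO replicate 1 (3 and 2 higher), LINC00641 ASO replicate 2 (3 higher) and HEK293T control replicate 3 (2 lower). With 2 libraries the LINC00641 group leaves 1 after such a step, assumed to vary like the others. Depth limits GDF15 in HEK293T and Spata18, Acer2 and Perp in mouse, which held too few counts to test or nearly so.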
